A study of Mus musculus with 6 samples.

Results

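The Myc, Max and Mxd network was measured by 27 probe sets for 10 genes, out of 45101 probe sets on each array. The members were Myc, Mycn and Mycl, their partner Max, the repressors Mxd1, Mxd3, Mxd4, Mxi1 and Mnt, and Mga, and every probe set annotated to exactly 1 of these symbols was taken. No probe set was shared between a member and another gene. Total RNA of the mouse embryonic stem cell line E14Tg2a was labelled with biotin for Affymetrix arrays 96 h after transfection. The 3 groups, of 2 arrays each, had received a duplex against firefly luciferase (control siRNA), Ncl siRNA #1 or Ncl siRNA #2. Ncl encodes nucleolin, a nucleolar protein needed to make ribosomes. All groups were the same line and time, an untransfected group was not analysed here, and no label tells whether the replicates came from different cultures. The p-values therefore describe the spread between these arrays only, which may be technical.

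Myc proteins bind DNA as dimers with Max, mostly at the E-box CACGTG, and raise the transcription of genes for growth, nucleotide supply and ribosome production. The Mxd proteins, Mxi1 and Mnt take the same partner and the same sites but bring the Sin3 and histone deacetylase co-repressors. Mga also pairs with Max and is the scaffold of a variant Polycomb complex, with E2f6, Pcgf6 and L3mbtl2, that keeps germline genes silent in embryonic stem cells.

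Values are log2 probe set values as the authors deposited them. Changes are differences of group means with standard errors (SE) from limma, and a probe set was called at a Benjamini-Hochberg adjusted p under 0.05 over 45037 probe sets. Array medians lay between 5.73 and 5.79 and lower quartiles between 4.17 and 4.32. Ncl fell on all 5 of its probe sets in the mean of both siRNAs against control, to between 35.4% and 72.7% of control, the smallest fall being on the brightest. The 12 markers of embryonic stem cells averaged between 11.99 and 12.51 on every array, with 8 lower, 2 higher and 2 not called in the mean of both siRNAs. The control arrays stood apart. Of 12 lung epithelium markers 10 were lower with the Ncl siRNAs and 1 higher, and their summed linear signal was 11757 to 12354 in the control arrays, 588 to 624 with siRNA #1 and 573 to 627 with siRNA #2. Of these markers Scgb1a1, Cyp2f2 and Bpifa1 lay below the lower quartile on every Ncl siRNA array. All 8 heart muscle markers were lower too, with summed signals of 692 to 848 in the control arrays against 307 to 347 in the others. Stroma markers were lower for 6 of 10 (752 to 870 against 372 to 384). Leukocyte markers were lower for 2 and higher for 1 of 10 (2642 to 2860 against 2542 to 2680), and endothelium markers lower for 4 and higher for 2 of 8 (915 to 977 against 837 to 1032). The bacterial poly-A controls, added to RNA before labelling, averaged 7.13 to 7.28 on the control arrays and 7.83 to 8.25 on the Ncl siRNA arrays. The part of these differences in the results against control was not tested. The difference of siRNA #2 and siRNA #1 is taken between their own arrays, while its SE and adjusted p use a spread pooled over all 6.

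Members changed in both directions. Mxd4 was called higher on 3 of its 4 probe sets with each siRNA. The rise was 2.73-fold to 3.10-fold on 2 of them, and 1.98-fold (siRNA #1) and 1.52-fold (siRNA #2) on the third. Mycn rose on 2 of 3 probe sets and Mxd3 fell on all 3 of its own. Mga fell to 51.7% and 47.4% of control on its brightest probe set, while Myc and Max were not called. With siRNA #1, 7 of the 27 probe sets rose, 6 fell and 14 were not called, so that 48.1% were called against 27.1% of all probe sets. With siRNA #2, 6 rose, 8 fell and 13 were not called, or 51.9% against 28.5% of all. In the mean of both, 6 rose, 7 fell and 14 were not called, against 31.5% of all. Among probe sets not below the median signal, 11 of 21 members were called with siRNA #1, against 49.1% of all such probe sets. For siRNA #2 it was 12 of 21 against 52.5%, and for the mean 12 of 21 against 55.3%. Brighter members were thus called about as often as other bright probe sets. With siRNA #1 and siRNA #2 the median change over the 27 was 0.03 and 0.01, and over all probe sets -0.05 and -0.03. The sign of the network's median is not settled, since it was -0.04 with each siRNA after quantile normalization. The 2 comparisons share the control arrays. In bulk RNA, fewer cells that express a gene and less RNA per cell cannot be told apart.

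**Figure D1:**
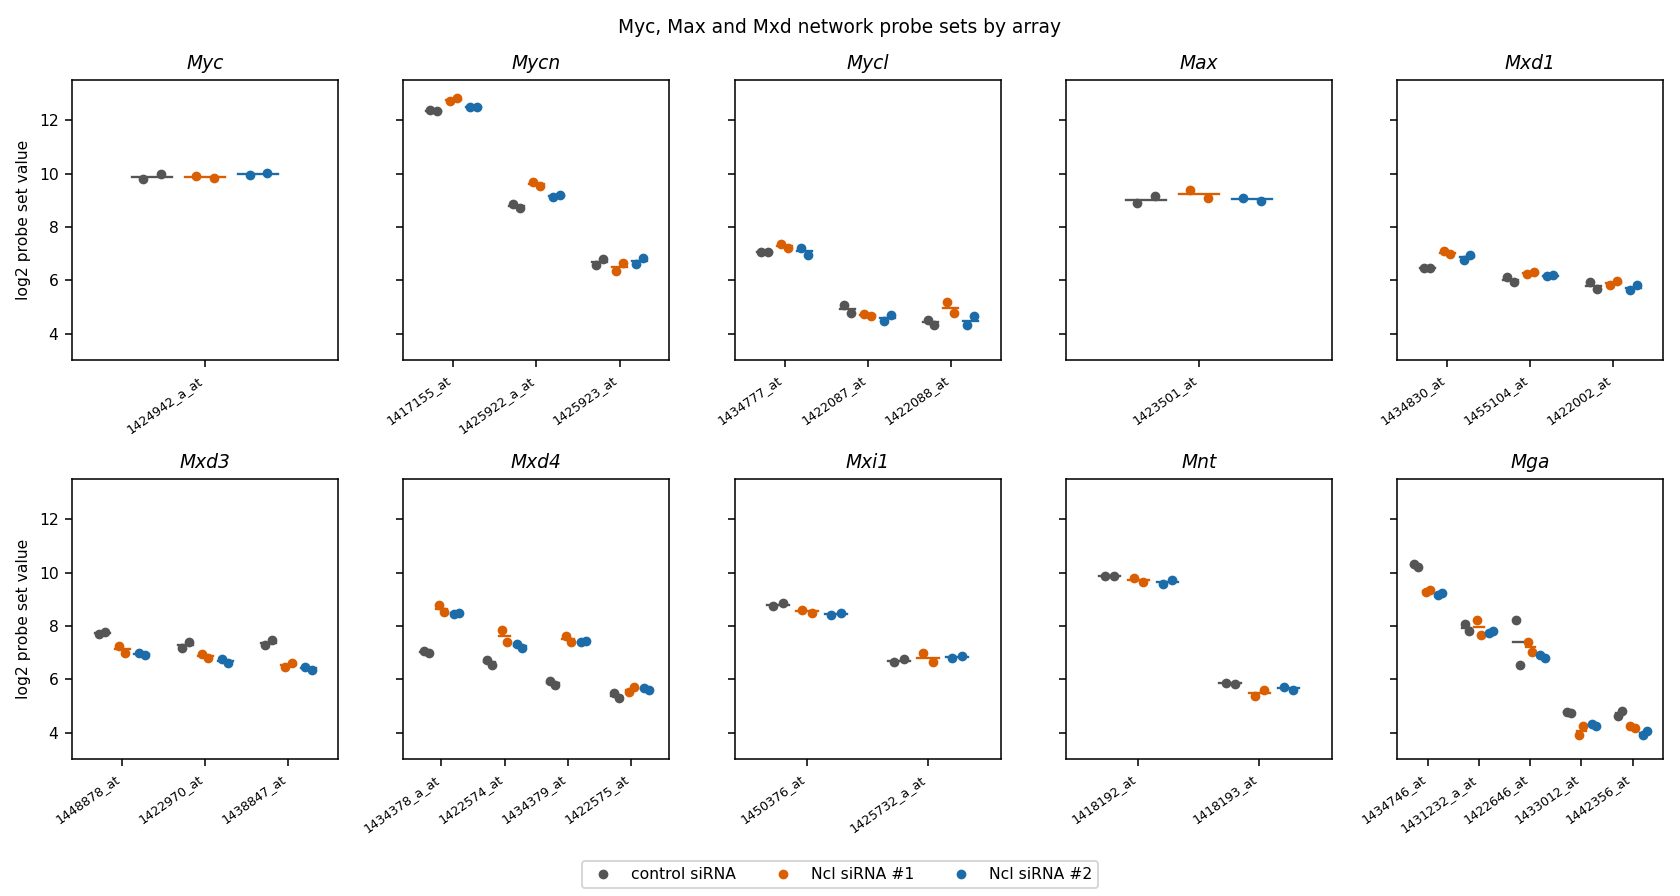
Log2 probe set values (y axis) of all 27 member probe sets (x axis, by gene, brightest first), 1 point per array and a short line at each group mean of 2 arrays. Mxd4 stands higher and Mxd3 and the brightest Mga probe set lower in the 4 Ncl siRNA arrays, while Myc lies between 9.80 and 10.02 on every array.

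Among the activators, Myc itself was not called with either siRNA. Its single probe set (1424942_a_at) stood at 9.80 and 9.98 in control arrays, at 9.92 and 9.82 after siRNA #1 and at 9.96 and 10.02 after siRNA #2. Both siRNA #1 arrays lay between the controls, and with siRNA #2 the higher array lay above both controls and the lower did not. The change was -0.01 with siRNA #1 (SE 0.08, 95% interval -0.19 to 0.16, limma adjusted p = 0.921) and 0.10 with siRNA #2 (SE 0.08, interval -0.07 to 0.27, adjusted p = 0.438). Changes within these intervals are not excluded, and Myc protein, which turns over fast, was not measured here.

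Mycn, the paralogue that works beside Myc in the early embryo, rose on 2 of its 3 probe sets. The brightest (1417155_at) stood at 12.37 and 12.34 in control arrays, at 12.72 and 12.83 after siRNA #1 and at 12.51 and 12.48 after siRNA #2. All 4 Ncl siRNA arrays were above both controls, and the siRNA #1 arrays were the highest. The next (1425922_a_at) read 8.87 and 8.72, then 9.69 and 9.54, then 9.14 and 9.19, in the same order of arrays. With siRNA #1 the changes were 0.42 (SE 0.05, limma adjusted p = 5.14e-06) and 0.82 (SE 0.09, adjusted p = 2.97e-06), which is 134% and 177% of control. With siRNA #2 they were 0.14 (SE 0.05, adjusted p = 0.0418) and 0.37 (SE 0.09, adjusted p = 0.00529), or 110% and 129%. The siRNA #2 call on the brightest probe set was lost with arrays centred on their median (0.09, adjusted p = 0.220), with the replicate number as a block (adjusted p = 0.0605), without a variance trend (adjusted p = 0.359), and without either control array or either siRNA #2 array (adjusted p from 0.107 to 0.235). On the next probe set it was lost without replicate 2 of the control (0.29, adjusted p = 0.0816) or of siRNA #2 (0.34, adjusted p = 0.0814), and without a variance trend (adjusted p = 0.0502). The siRNA #1 calls held without each array in turn. The dimmest probe set (1425923_at), between 6.36 and 6.82 on all arrays, was not called with siRNA #1 (-0.19, SE 0.16) or siRNA #2 (0.03, SE 0.16).

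Mycn was also the member in which the siRNAs differed. It was lower with siRNA #2 than with siRNA #1 by 0.28 on the brightest probe set (-0.28, SE 0.05, limma adjusted p = 0.00460) and by 0.45 on the next (-0.45, SE 0.09, adjusted p = 0.0119). These were the 2 of 27 probe sets called in that comparison, against 2.91% of all probe sets. Among probe sets not below the median signal, they were 2 of 21 members, against 9.34% of all such probe sets. Bright members were thus called between the siRNAs about as often as other bright probe sets. Both calls were lost without either siRNA #2 array, with adjusted p from 0.0546 to 0.230, and without a variance trend (adjusted p = 0.306 and 0.205). The second was lost also without replicate 1 of siRNA #1 (-0.38, adjusted p = 0.0726). Without replicate 2 of siRNA #1 the difference became -0.71 on Mycl 1422088_at, -0.37 on Max, -0.60 on Mxd4 1422574_at and -0.46 on Mga 1431232_a_at. These values rest on a single siRNA #1 array, and more probe sets of the whole array were called in that fit too.

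Mycl, the third Myc gene, was called on 1 of 3 probe sets and with siRNA #1 only. Its brightest probe set (1434777_at) stood at 7.06 and 7.06 in control arrays, at 7.35 and 7.21 after siRNA #1 and at 7.21 and 6.96 after siRNA #2, and was not called (0.22 and 0.03, SE 0.14). The others lay below the median of every array. Of these, 1422088_at passed with siRNA #1 (0.55, SE 0.19, limma adjusted p = 0.0438), from 4.51 and 4.34 to 5.19 and 4.76. That call was lost without any 1 of 5 arrays, namely all but replicate 2 of siRNA #1 (adjusted p from 0.0606 to 0.305), and without a variance trend (adjusted p = 0.0759). The difference between the siRNAs was not called (-0.49, SE 0.19, adjusted p = 0.200), and 1422087_at pointed the other way (-0.22, SE 0.18, not called).

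Max, the shared partner of the network, was represented by 1 probe set (1423501_at). It stood at 8.89 and 9.14 in control arrays, at 9.40 and 9.07 after siRNA #1 and at 9.08 and 8.99 after siRNA #2, so that the groups overlapped. The change was 0.22 with siRNA #1 (SE 0.11, 95% interval -0.03 to 0.46, limma adjusted p = 0.187) and 0.01 with siRNA #2 (SE 0.11, interval -0.23 to 0.25, adjusted p = 0.955). Without replicate 2 of siRNA #1 the first of these passed (0.38, adjusted p = 0.0174).

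**Figure D2:**
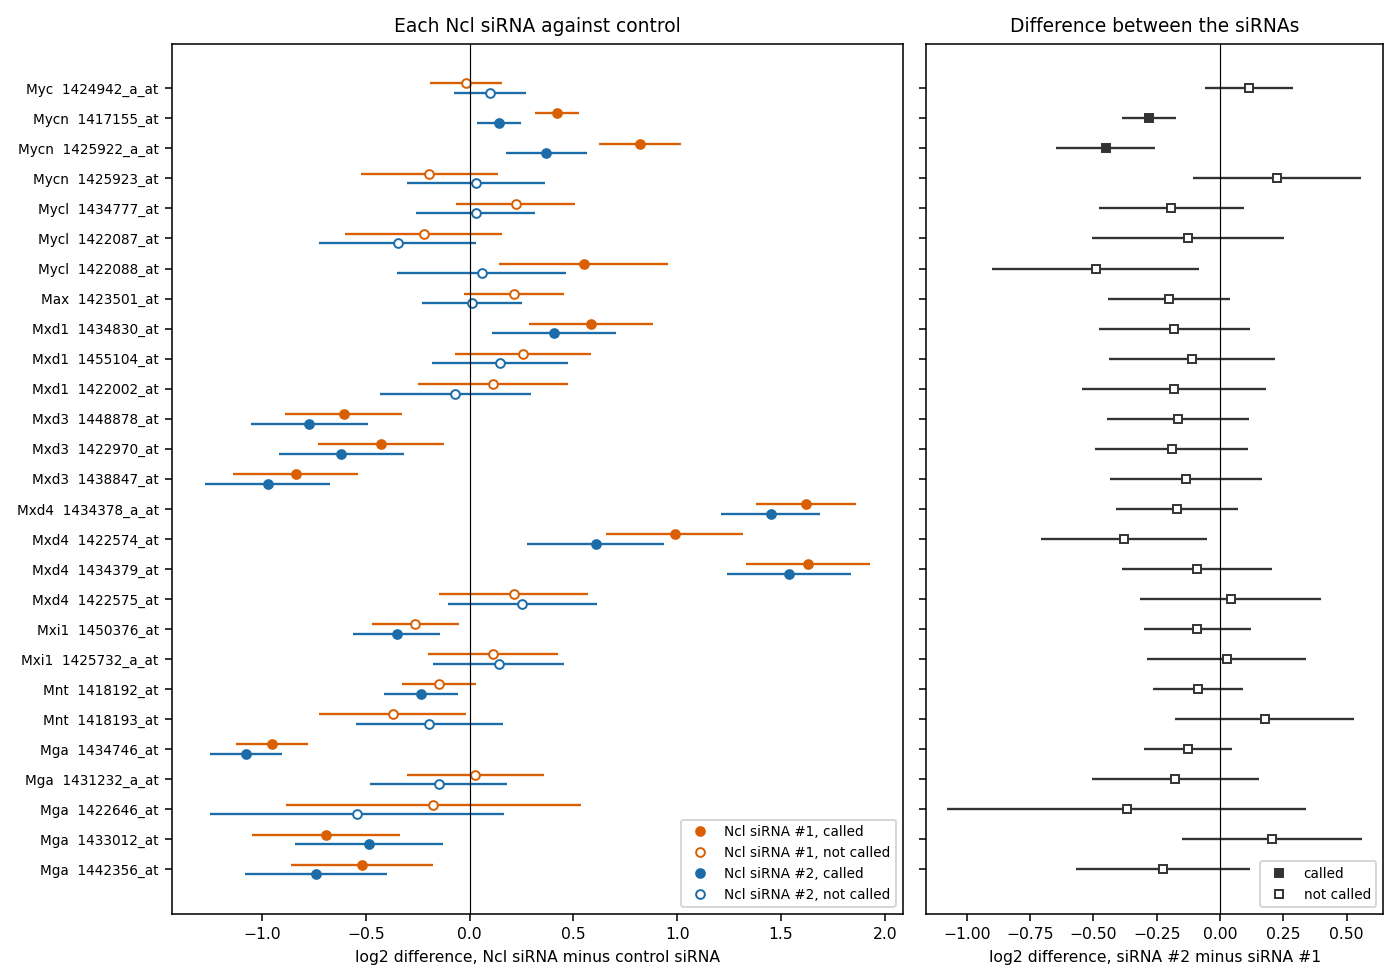
Log2 differences of each member probe set (y axis) with 95% intervals from limma, against control for each Ncl siRNA (left) and between the siRNAs (right), where filled marks are called at an adjusted p under 0.05. The Mxd4 probe sets reach 1.63, the brightest Mga probe set lies near -1, and on the right the 2 filled marks are both Mycn.

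Among the repressors, Mxd4 showed the largest rise in the network. It is a Mxd protein usually linked to cells that leave the cycle. Its brightest probe set (1434378_a_at) stood at 7.06 and 6.99 in control arrays, at 8.77 and 8.52 after siRNA #1 and at 8.46 and 8.49 after siRNA #2. Another (1434379_at) read 5.94 and 5.79, then 7.62 and 7.38, then 7.40 and 7.42. On both, every Ncl siRNA array lay more than 1 log2 unit above every control array. With siRNA #1 the changes were 1.62 (SE 0.11, limma adjusted p = 1.06e-08) and 1.63 (SE 0.14, adjusted p = 1.32e-07), and with siRNA #2 1.45 (SE 0.11, adjusted p = 3.36e-08) and 1.54 (SE 0.14, adjusted p = 2.08e-07). In percent of control these are 307% and 310%, then 273% and 291%, and none of these calls was lost without any single array. The probe set 1422574_at rose by 0.99 with siRNA #1 (SE 0.16) and 0.61 with siRNA #2 (SE 0.16), from 6.73 and 6.53 to 7.85 and 7.39, then 7.33 and 7.15. Its siRNA #2 call was lost without replicate 2 of the control (0.51, adjusted p = 0.0643) or replicate 1 of siRNA #2 (0.52, adjusted p = 0.104). The dimmest (1422575_at), between 5.31 and 5.69, was not called (0.21 and 0.26, SE 0.17).

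Mxd3, unlike its relatives known for expression in dividing cells, fell on all 3 probe sets. Control arrays gave 7.69 and 7.76 on 1448878_at, against 7.26 and 6.98 after siRNA #1 and 6.98 and 6.92 after siRNA #2. The next (1422970_at) read 7.18 and 7.41, then 6.96 and 6.78, then 6.75 and 6.60. The last (1438847_at) read 7.29 and 7.46, then 6.47 and 6.61, then 6.46 and 6.35. No Ncl siRNA array reached a control array on any of them. With siRNA #1 the changes were -0.61 (SE 0.13, limma adjusted p = 0.00216), -0.43 (SE 0.14, adjusted p = 0.0348) and -0.84 (SE 0.14, adjusted p = 2.31e-04). With siRNA #2 they were -0.77 (SE 0.13, adjusted p = 2.16e-04), -0.62 (SE 0.14, adjusted p = 0.00292) and -0.97 (SE 0.14, adjusted p = 4.31e-05). The levels were 56.0% to 74.4% of control with siRNA #1 and 51.0% to 65.2% with siRNA #2. The calls of 1448878_at and 1438847_at held without each array in turn. That of 1422970_at was lost with siRNA #1 without replicate 2 of the control, replicate 2 of siRNA #1 or either siRNA #2 array (adjusted p from 0.0699 to 0.257), without a variance trend (adjusted p = 0.0550) and with the arrays of the compared groups alone (adjusted p = 0.0666). With siRNA #2 it was lost without replicate 2 of the control (-0.50, adjusted p = 0.0513) or of siRNA #2 (-0.54, adjusted p = 0.0681). The lung epithelium markers, summed at 11757 or more in the control arrays and at 627 or less in the others, separated the same arrays as Mxd3 and Mxd4, and their part was not tested.

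Mxd1, the founding Mxd repressor, gave a smaller rise on its brightest probe set alone. That probe set (1434830_at) lay at 6.45 in both control arrays, at 7.10 and 6.97 after siRNA #1 and at 6.77 and 6.94 after siRNA #2. It rose by 0.59 with siRNA #1 (SE 0.14, limma adjusted p = 0.00443) and by 0.41 with siRNA #2 (SE 0.14, adjusted p = 0.0396). The siRNA #2 call was lost with quantile normalization (0.34, adjusted p = 0.0530), with centred arrays (0.36, adjusted p = 0.0792), and without either control or either siRNA #2 array (adjusted p from 0.106 to 0.359). The other probe sets gave 0.26 and 0.11 with siRNA #1 and 0.15 and -0.07 with siRNA #2, with SE of 0.15 and 0.17, and none was called.

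Mxi1, the Mxd2 of older naming, and Mnt, the repressor present in most tissues, were each called on 1 probe set and with siRNA #2 only. The brighter Mxi1 probe set (1450376_at) stood at 8.75 and 8.86 in control arrays, at 8.61 and 8.47 after siRNA #1 and at 8.42 and 8.48 after siRNA #2, all lower than both controls. It was called with siRNA #2 (-0.35, SE 0.10, limma adjusted p = 0.0126) and not with siRNA #1 (-0.26, SE 0.10, adjusted p = 0.0638). The difference between the siRNAs was -0.09 (SE 0.10, adjusted p = 0.694), so a stronger effect of siRNA #2 was not shown. The dimmer Mxi1 probe set was not called (0.11 and 0.14, SE 0.15). The siRNA #2 call was lost without replicate 2 of the control or either siRNA #2 array (adjusted p from 0.0715 to 0.151) and without a variance trend (adjusted p = 0.0519). The siRNA #1 value passed without replicate 1 of siRNA #1 (-0.33, adjusted p = 0.0257) and with quantile normalization (-0.35, adjusted p = 0.00511).

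The brighter Mnt probe set (1418192_at) stood at 9.86 and 9.87 in control arrays, at 9.79 and 9.64 after siRNA #1 and at 9.56 and 9.70 after siRNA #2. It passed with siRNA #2 only at the edge (-0.23, SE 0.08, limma adjusted p = 0.0464), a level of 85.0% of control, and not with siRNA #1 (-0.15, SE 0.08, adjusted p = 0.229). The siRNA #2 call was lost without either control or either siRNA #2 array (adjusted p from 0.0702 to 0.430). It was lost too with quantile normalization (adjusted p = 0.0809), with the replicate block (adjusted p = 0.0635) and without a variance trend (adjusted p = 0.174). The dimmer probe set (1418193_at) gave -0.37 and -0.19 (SE 0.17) and was not called.

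Mga fell on 3 of 5 probe sets, among them the brightest, and the other two did not pass. The brightest (1434746_at) stood at 10.33 and 10.21 in control arrays, at 9.28 and 9.36 after siRNA #1 and at 9.17 and 9.22 after siRNA #2, a wide gap between controls and all other arrays. It fell to 51.7% of control with siRNA #1 (-0.95, SE 0.08, limma adjusted p = 1.32e-07) and to 47.4% with siRNA #2 (-1.08, SE 0.08, adjusted p = 2.39e-08), and no left-out array ended either call. The next (1431232_a_at) did not follow. It read 8.06 and 7.79, then 8.24 and 7.67, then 7.73 and 7.82, with changes of 0.03 and -0.15 (SE 0.16). On the third (1422646_at) the controls read 8.24 and 6.53, further apart than any other pair of member readings, against 6.78 to 7.41 in the Ncl siRNA arrays. Its change with siRNA #1 was -0.17 (SE 0.33, adjusted p = 0.756) with both controls, -1.03 without replicate 2 of the control (adjusted p = 4.86e-04) and 0.68 without replicate 1 (adjusted p = 0.0160). Its direction thus rests on which control array is used. The dimmest pair, 1433012_at and 1442356_at, read 4.63 to 4.82 in the control arrays and 3.90 to 4.30 in the others, near or below the lower quartile of the arrays. They fell by 0.69 and 0.52 with siRNA #1 (SE 0.17 and 0.16) and by 0.48 and 0.74 with siRNA #2 (SE 0.17 and 0.16). Of these calls, that of 1433012_at with siRNA #2 was lost without either control or either siRNA #2 array (adjusted p from 0.0845 to 0.225) and with siRNA #1 without replicate 1 of siRNA #1 (-0.52, adjusted p = 0.0523). That of 1442356_at with siRNA #1 was lost without replicate 2 of the control, replicate 2 of siRNA #1 or either siRNA #2 array (adjusted p from 0.0525 to 0.141), and with quantile normalization (adjusted p = 0.0593). The probe sets read different stretches of transcripts, whose positions were not used here, and the lung markers again separate the control arrays from the rest.

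The promoters of some of the members that moved are shown because the network binds the E-box. RefSeq windows (build GRCm38.p6) from 250 bases before to 50 after the start were found for 9 of the 10 members, not for Myc. CACGTG, which reads the same on both strands, lay in the windows of 3 of these 9 genes, Max, Mxd4 and Mnt, against 8.09% of the 27025 genes in the table. It begins 219 bases before the start in Mxd4, 123 before it in Mnt and 3 before it in Max. Of these Mxd4 rose, Mnt was called lower with siRNA #2 only, and Max was not called. Mycn, Mxd3 and Mga changed with no CACGTG in this window. Mxd1, Mxi1 and Mycl, each called on 1 probe set, had none either. A match is a description and not a measured site. The 250 bases before the start are given 5′ to 3′ on the gene's strand, with CACGTG in capitals.
Mxd4 (chr5:34187711-34187960, minus strand): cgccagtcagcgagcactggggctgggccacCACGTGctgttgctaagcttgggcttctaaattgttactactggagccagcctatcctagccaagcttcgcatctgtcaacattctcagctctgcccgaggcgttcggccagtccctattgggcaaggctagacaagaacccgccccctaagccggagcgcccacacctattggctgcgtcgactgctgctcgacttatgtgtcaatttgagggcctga
Mnt (chr11:74830674-74830923, plus strand): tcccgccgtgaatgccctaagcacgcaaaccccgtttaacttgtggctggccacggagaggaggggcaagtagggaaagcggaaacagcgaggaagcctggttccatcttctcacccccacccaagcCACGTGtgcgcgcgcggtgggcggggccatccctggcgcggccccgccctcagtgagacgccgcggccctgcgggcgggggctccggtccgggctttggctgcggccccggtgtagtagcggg
Mycn (chr12:12941837-12942086, minus strand): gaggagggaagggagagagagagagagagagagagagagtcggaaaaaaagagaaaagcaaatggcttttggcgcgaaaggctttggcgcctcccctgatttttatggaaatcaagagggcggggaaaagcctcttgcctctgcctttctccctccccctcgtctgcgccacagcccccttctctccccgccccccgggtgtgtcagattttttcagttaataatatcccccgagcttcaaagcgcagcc
Mxd3 (chr13:55329732-55329981, minus strand): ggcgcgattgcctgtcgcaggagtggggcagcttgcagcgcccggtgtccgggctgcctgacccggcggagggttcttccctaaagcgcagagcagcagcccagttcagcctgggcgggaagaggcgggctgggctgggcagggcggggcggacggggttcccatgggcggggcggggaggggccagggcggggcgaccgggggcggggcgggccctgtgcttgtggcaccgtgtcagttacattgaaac
Mga (chr2:119896978-119897227, plus strand): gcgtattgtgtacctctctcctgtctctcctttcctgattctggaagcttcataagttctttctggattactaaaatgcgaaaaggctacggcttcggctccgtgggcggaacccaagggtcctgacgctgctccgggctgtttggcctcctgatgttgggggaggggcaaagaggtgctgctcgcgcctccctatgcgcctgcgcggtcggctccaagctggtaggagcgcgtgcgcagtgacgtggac

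Genes that work with Mga were measured next, from a list of 11 subunits of its Polycomb complex. In this and the lists that follow, each gene is given by its brightest probe set. The comparison is the mean of both siRNAs minus control, in which 39.3% of 18193 genes were called, 19.3% higher and 19.9% lower. Those genes include dim ones. Of all probe sets not below the median signal, counted by probe set and not by gene, 55.3% were called in this comparison. Of 10 measured subunits 3 rose, 4 fell and 3 were not called, with a median of -0.01 (0.0034 after quantile normalization) against -0.05 over all genes. E2f6, the DNA-binding partner in the complex, rose by 1.25 (SE 0.08, limma adjusted p = 1.06e-09), from 8.47 and 8.62 in the control arrays to 9.75 to 9.89 in the others, though its second probe set gave 0.03. Yaf2, a Ring1 binding protein, rose by 0.79 (SE 0.10) and Rnf2, the catalytic ubiquitin ligase, by 0.24 (SE 0.05), but 1 of the 5 Rnf2 probe sets was called lower and the Rnf2 call was lost without a variance trend (adjusted p = 0.0734). Cbx1, a heterochromatin protein, fell by 0.56 (SE 0.07). Yaf2 was called on both of its probe sets and Cbx1 on 3 of 5.

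Germline and meiotic genes, the kind that this complex keeps silent, were higher. With siRNA #1, 12 of 16 rose, and with siRNA #2, 11 of 16, with none lower, against 18.9% and 16.7% of all genes called higher. The medians were 1.09 and 0.74 against -0.05 and -0.04 over all genes. In the mean of both, Taf7l, a testis form of a general transcription factor subunit, rose by 2.60 (SE 0.11, limma adjusted p = 1.46e-11), from 5.31 and 5.40 to 7.91 to 8.01. Slc25a31, a testis ADP/ATP carrier, rose by 2.46 (SE 0.14), Meioc, needed for meiotic entry, by 1.81 (SE 0.10), and Dazl, a germ cell RNA-binding protein, by 1.66 (SE 0.13). At an unadjusted p under 0.05, limma also gave 0 lower. The arrays in which the list rose are those with less lung marker signal and higher poly-A controls, whose part was not tested. CACGTG lay in the windows of 9 of the 15 genes of the list that have one (60.0%), against 8.09% of all genes. The list was drawn from general knowledge of genes that Max and Mga hold down, with earlier results of these data known. Neither the number of its genes called higher nor this share is therefore independent evidence. Taf7l and Slc25a31 hold CACGTG 49 and 93 bases before the start, while Meioc and Dazl have none in this window. The 250 bases before the start of the first pair are shown in the same way as those of the members.
Taf7l (chrX:134476491-134476740, minus strand): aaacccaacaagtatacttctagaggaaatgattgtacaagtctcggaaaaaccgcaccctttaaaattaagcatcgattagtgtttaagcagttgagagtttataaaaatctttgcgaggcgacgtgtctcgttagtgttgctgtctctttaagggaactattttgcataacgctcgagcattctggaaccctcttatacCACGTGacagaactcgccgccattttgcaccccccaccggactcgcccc
Slc25a31 (chr3:40708621-40708870, plus strand): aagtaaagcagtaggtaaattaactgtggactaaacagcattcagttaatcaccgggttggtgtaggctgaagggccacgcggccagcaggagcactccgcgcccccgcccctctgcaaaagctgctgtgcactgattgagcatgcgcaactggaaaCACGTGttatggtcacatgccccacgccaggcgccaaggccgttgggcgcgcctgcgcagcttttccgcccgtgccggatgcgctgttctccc

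**Figure D3:**
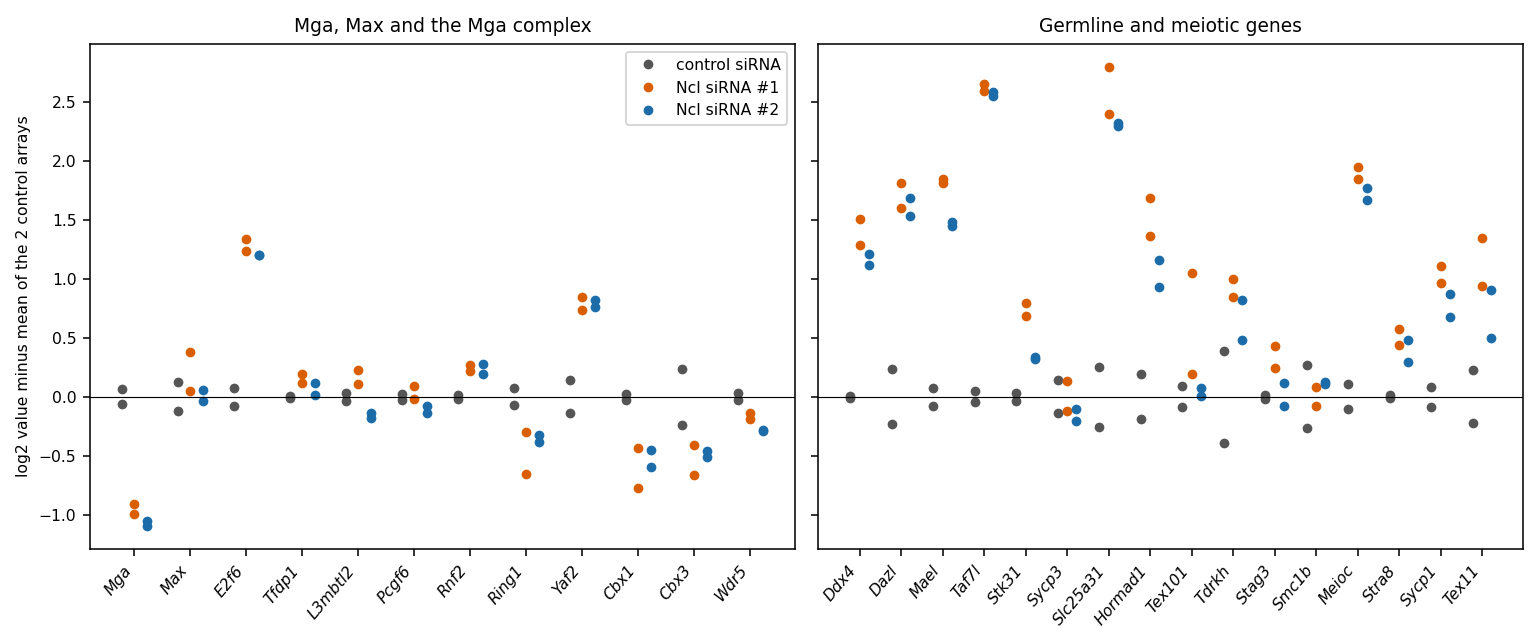
Log2 values of each array minus the mean of the 2 control arrays (y axis) for Mga, Max and subunits of the Mga complex (left) and for germline and meiotic genes (right), 1 point per array on the brightest probe set of each gene. Mga lies near -1 and E2f6 above 1 on the left, and on the right Taf7l and Slc25a31 lie above 2 on every Ncl siRNA array.

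Targets that Myc is known to activate were mostly lower, by small amounts. Of 42 genes, 25 fell, 8 rose and 9 were not called, with a median of -0.17. Shmt2, the mitochondrial serine hydroxymethyltransferase, fell by 0.92 (SE 0.07, limma adjusted p = 2.66e-08). Ncl, itself a Myc target and here the siRNA target, fell by 0.46 (SE 0.03) on its brightest probe set, the smallest fall of its 5. The 25 include Ncl, whose fall the siRNAs were meant to cause. Ccnd2, cyclin D2, rose by 2.13 (SE 0.07, adjusted p = 3.76e-13) on its brightest probe set, with all 7 of its probe sets called higher. It stood at 8.42 and 8.32 in control arrays, at 10.81 and 10.71 after siRNA #1 and at 10.22 and 10.25 after siRNA #2. Cad, the first enzyme of pyrimidine synthesis, rose by 0.57 (SE 0.06) on 2 of 3 probe sets. Targets that Myc is known to repress went the other way, with 7 of 15 higher, 3 lower and 5 not called, and a median of 0.20. Cdkn1a, the p21 inhibitor, rose by 2.37 (SE 0.07), Klf6 by 2.13 (SE 0.05), Btg2 by 1.65 (SE 0.07) and Cdkn2b, the p15 inhibitor, by 1.53 (SE 0.10). Cdkn1a and Btg2 are also well known targets of p53. Both lists are read on the same control arrays as the lung markers, whose part was not tested.

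Enzymes that set the life of Myc proteins changed in both directions. Of 21 measured genes 4 rose, 7 fell and 10 were not called, with a median of -0.09. Fbxw7, the ubiquitin ligase subunit that marks phosphorylated Myc for destruction, rose by 1.07 (SE 0.06, limma adjusted p = 4.71e-10), from 9.59 and 9.53 to between 10.57 and 10.70. Both of its probe sets were called higher. Usp28, a deubiquitinase that opposes Fbxw7, fell by 1.10 (SE 0.08, adjusted p = 5.54e-09), from 10.07 and 10.03 to between 8.79 and 9.18. Skp2, another ubiquitin ligase subunit for Myc, fell by 0.70 (SE 0.06) with 5 of 6 probe sets called lower, and Usp22, a deubiquitinase of a histone acetylase complex, rose by 0.64 (SE 0.06). These calls held in each leave-one-out fit for all of these 4 genes.

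Among co-factors more were called lower than higher. Of 13 measured co-repressors of the Mxd proteins and Mnt, 7 fell, 1 rose and 5 were not called (median -0.19). Sin3a, the scaffold bound by Mxd proteins, fell by 0.58 (SE 0.06, limma adjusted p = 1.52e-06), from 10.38 and 10.38 to between 9.71 and 9.93. All 3 of its probe sets were called lower, with values from -0.93 to -0.58. The paralogue Sin3b rose by 0.36 (SE 0.05, adjusted p = 1.76e-05), from 11.12 and 11.14 to between 11.44 and 11.54. All 5 of its probe sets were called higher, with values from 0.34 to 0.52. Ing2 and Ing1, readers of histone methylation in Sin3 complexes, fell by 0.69 (SE 0.07) and 0.51 (SE 0.05), with 2 of the 4 Ing1 probe sets called. Of 17 co-activators and chromatin partners of Myc, 8 fell, 3 rose and 6 were not called (median -0.20), and Bptf (-0.50, SE 0.06), Ccnt1 (-0.36, SE 0.07), Actl6a (-0.30, SE 0.06) and Ruvbl1 (-0.27, SE 0.06) were the largest that passed with each siRNA. Of the 3 Actl6a probe sets 1 was called, and the values ran from -0.30 to 0.11. The siRNA #1 call of Ccnt1 was lost without any single array except replicate 1 of siRNA #1. It was also lost with the replicate block (limma adjusted p = 0.0506), with the compared groups alone (0.0693) and without a variance trend (0.112). Actl6a lost its siRNA #2 call, and Ruvbl1 its call with each siRNA, without some single arrays. Without a variance trend Actl6a and Ruvbl1 were not called in the mean of both (adjusted p = 0.0567 and 0.0713). In the related Mlx arm, which senses glucose, 1 of 3 genes was called, Mlxip (-0.43), named here after its value was seen.

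**Figure D4:**
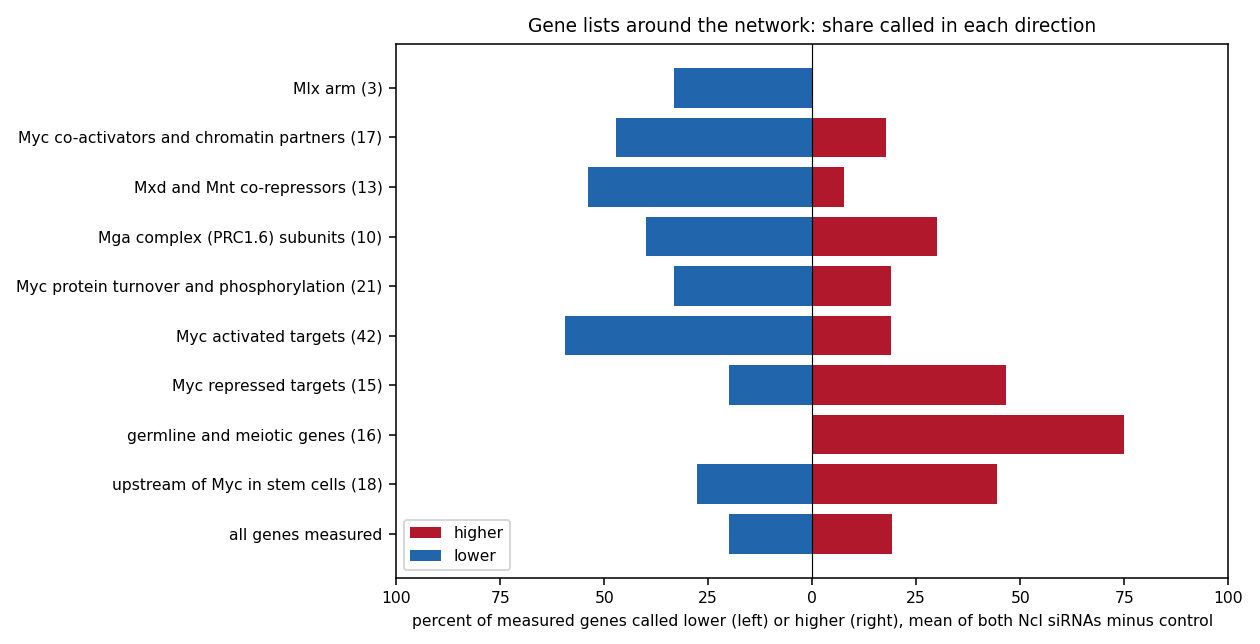
Percent of measured genes (x axis) called higher (right) or lower (left) at an adjusted p under 0.05 in the mean of both Ncl siRNAs minus control, for each list (y axis, number measured in brackets) and for all 18193 genes. Of the 16 germline and meiotic genes 12 are called higher and none lower, and the activated Myc targets are mostly called lower, beside 19.3% higher and 19.9% lower over all genes.

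Inputs that act on Myc genes in stem cells were mixed, with 8 of 18 higher, 5 lower and 5 not called (median 0.06). Lif, the cytokine that sustains Myc through Stat3, rose by 1.42 (SE 0.14), while its receptor Lifr fell by 0.65 (SE 0.07) and Socs3, a Stat3 target and brake, fell by 0.94 (SE 0.07). Tcf7l2, a Wnt pathway factor, rose by 1.82 (SE 0.12) on 2 of 4 probe sets. The second probe set of Lif and 2 of the 3 of Lifr were not called.

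Across the arrays, the profiles nearest to Myc were those of Pip4k2c, Atf4 and Gata5os, with root mean square differences of 0.02, 0.03 and 0.03 over 6 arrays after each was centred on its mean, among 16442 genes. For Mycn they were Ubxn2a, Hnrnph3 and Pcmtd1 (0.03, 0.03 and 0.04). These are descriptions of likeness over 6 arrays, and for Myc they list genes that, like it, were not called against control. Gata5os, at 3.24 to 3.53, lay below the lower quartile on every array.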

How the data were processed

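The arrays were labelled with an Affymetrix IVT kit, per the labels. The values the authors deposited are on a log2 scale, as their range shows. How they were normalized and summarized is not given in the sources used here. The number of arrays limits precision. Symbols came from the platform annotation, which can be old. Without the 64 control probe sets, 34945 probe sets had 1 symbol, 932 several and 9160 none, and all 45037 were tested, since the members are compared probe set by probe set. limma 3.58.1 in R 4.3.3 fitted 1 mean per group to all 6 arrays, with trended empirical Bayes variances (3 residual and 13.0 prior degrees of freedom) and Benjamini-Hochberg adjustment at 0.05, and was tested on simulated data. For gene lists the brightest probe set stood for a gene. The members and lists were chosen with earlier results of these data known. A few genes are in more than 1 list. Up to 4 genes a list were named, by the size of their mean change among those called alike with each siRNA and with no overlap with the controls. Alternatives were other normalization, variances, filters, arrays and thresholds, the replicate number as a block, and leaving out each array.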

Additional observations from a re-analysis of the deposited data

Results flagged for a closer look

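Mycn differed between the siRNAs. It was lower with siRNA #2 than with siRNA #1 on its brightest probe set (-0.28, limma adjusted p = 0.00460) and on the next (-0.45, limma adjusted p = 0.0119), with the third probe set not called (0.22, SE 0.16). Both calls were lost without either siRNA #2 array and without a variance trend. Against control both probe sets were called with each siRNA, but with siRNA #2 the call on the brightest was lost without either control or either siRNA #2 array. Ccnd2 was likewise higher with both siRNAs and lower with siRNA #2 than with siRNA #1 (-0.52, limma adjusted p = 0.00114). Each difference was tested as a contrast of the fit to all 6 arrays, whose pooled spread includes the control arrays.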

How the results depend on the processing

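Of 1636 recomputed values of member probe sets, 1542 kept their direction and their side of the threshold, 75 lost a call, 17 gained one and 2 reversed. Both reversals were those of Mga 1422646_at without replicate 1 of the control, at 0.68 with siRNA #1 and 0.49 in the mean of both, where the control replicates read 8.24 and 6.53. Without replicate 2 of the control they were -1.03 and -1.21. Leaving out each array gave 10 to 13 called member probe sets with siRNA #1, 7 to 14 with siRNA #2, 12 to 14 in the mean of both and 0 to 6 between the siRNAs. The fewest with siRNA #2, 7, came without replicate 2 of the control or of siRNA #2. Fewer of all probe sets were called with siRNA #2 in those fits too. Likewise more of all probe sets were called between the siRNAs without replicate 2 of siRNA #1, where the most members were called. These ranges alone therefore do not set the members apart from other probe sets. With 1 probe set per gene, 6, 7, 7 and 1 of 10 were called with siRNA #1, siRNA #2, in the mean and between the siRNAs. Of all 18193 probe sets in that fit, which had fewer features, 37.4%, 39.5%, 42% and 8.48% were called. At an adjusted p under 0.01, 9 were called with siRNA #2 and 1 between the siRNAs, against 21.5% and 1.25% of all probe sets. Variances without a trend left 0 between the siRNAs by limma, with 3 at an unadjusted p under 0.05, against 0.238% of all probe sets called. The cause was not tested. In the mean of both siRNAs, 2 genes of the Mlx arm were called instead of 1 with a gene's probe sets averaged, and no other total of called list genes moved by more than 1.5 times. With siRNA #2 the split moved more: centred arrays gave 3 activated Myc targets higher instead of 7 and 10 turnover genes lower instead of 6, and quantile normalization gave 4 Mga complex subunits lower instead of 2. Both scalings gave 2 Mlx arm genes instead of 1. Of the germline and meiotic genes 9 were higher with siRNA #2 after quantile normalization and 10 with centred arrays, instead of 11. Same-numbered arrays did not deviate together (correlations of 0.0158, 7e-04 and 0.0174 between groups), so no shift shared by replicate number was seen. These values cannot tell whether same-numbered arrays came from the same culture or day. With the replicate block 13, 12, 13 and 2 member probe sets were called with siRNA #1, siRNA #2, in the mean and between the siRNAs. Of all probe sets 27.4%, 28.4%, 31.6% and 2.86% were called there. Of 1515 values of named list genes, 1489 were stable and 26 lost a call. A lone array left in a group was assumed to vary like the others. No member had a probe set of the x or s type.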
